A study of Homo sapiens with 21 samples.

Results

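FOXA1 sites without active histone marks were the 45087 of 104200 reproducible FOXA1 regions in CAMA1 cells that overlapped no H3K27ac peak and no H3K4me3 peak. A reproducible region was a merged stretch of the genome holding a FOXA1 peak of each of 2 replicate lists, on chromosomes 1 to 22 and X. A member had to be free of every row of 4 lists, the 2 H3K27ac and the 2 H3K4me3 lists, with 1 shared base counting as overlap. The members, called unmarked regions here, made up 43.3% of the FOXA1 regions (95% Wilson interval 43.0 to 43.6, counting error only). The other 59113 FOXA1 regions carried a mark: 32704 of them H3K27ac only, 958 H3K4me3 only and 25451 both. The absence of marks is therefore what chose the members, and it is not a finding.

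CAMA1 is an established breast cancer line that is positive for the oestrogen receptor and has an amplified FGFR1 gene. ChIP-seq, which sequences the DNA pulled down with an antibody, was deposited as 2 peak lists each for FOXA1, H3K27ac, H3K4me3, RNA polymerase II phosphorylated at serine 5 of its tail (Pol II S5P) and FGFR1 in untransfected cells. FGFR1 was also profiled, again with 2 lists each, in cells given the control siRNA siNT or siFOXA1, an siRNA against FOXA1, and collected 72 h after transfection. All groups shared the same line, at a low passage number, and 48 h in medium without estradiol, so no group with hormone enters any comparison. Whether the paired libraries were grown as independent cultures is not stated in the labels, so the spread between lists may be technical. No FOXA1 list exists among the files used here for the siRNA-treated cells, so the knockdown was not checked. The peaks inside both FOXA1 lists are named after FOXA2, a related factor; the labels, which give FOXA1, were followed, and every FOXA1 value here is of the libraries so labelled.

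FOXA1 is a forkhead transcription factor known as a pioneer factor, since it can bind its motif in closed chromatin and make it accessible for other factors, among them the oestrogen and androgen receptors. H3K27ac marks active enhancers and promoters, and H3K4me3 marks promoters in use. A FOXA1 site with neither mark is often described as bound but not active in the cell examined. FOXA1 and its relatives FOXA2 and FOXA3 were first described in liver, where they bind regulatory elements of serum protein genes.

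The sequences that can be shown are those of gene starts, because RefSeq promoter windows (GRCh38.p14, the assembly that hg38 names) were at hand and a genome was not. They cover 250 bases before to 50 bases after a gene's start. Of 34789 distinct windows, 109 had their start base inside an unmarked region, belonging to 108 genes, of which 44 code for protein. CXCL8, which encodes the chemokine interleukin-8, is shown because its start lies in the strongest unmarked region near an end of a coding gene. KLKB1 (plasma prekallikrein, made in liver), UGT2B11 (a glucuronosyltransferase that conjugates steroids), SFTPA2 (a lung surfactant protein) and IL33 (an alarmin cytokine) are shown as examples with a forkhead motif and were chosen after their values were seen. Each line gives the 250 bases before the start, 5′ to 3′ on the gene's own strand, and capitals mark a forkhead motif or, in CXCL8, an AP-1 motif.
CXCL8, plus strand, chr4:73740319-73740568: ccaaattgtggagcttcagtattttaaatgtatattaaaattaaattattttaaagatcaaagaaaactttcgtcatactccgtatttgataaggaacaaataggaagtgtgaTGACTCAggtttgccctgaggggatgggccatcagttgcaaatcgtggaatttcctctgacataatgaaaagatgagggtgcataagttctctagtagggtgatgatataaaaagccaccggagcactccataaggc
KLKB1, plus strand, chr4:186227257-186227506: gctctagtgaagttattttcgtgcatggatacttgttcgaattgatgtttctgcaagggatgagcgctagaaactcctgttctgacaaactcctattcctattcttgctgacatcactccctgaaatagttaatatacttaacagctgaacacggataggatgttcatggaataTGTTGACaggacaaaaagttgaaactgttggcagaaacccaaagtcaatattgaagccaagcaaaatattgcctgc
UGT2B11, minus strand, chr4:69214749-69214998: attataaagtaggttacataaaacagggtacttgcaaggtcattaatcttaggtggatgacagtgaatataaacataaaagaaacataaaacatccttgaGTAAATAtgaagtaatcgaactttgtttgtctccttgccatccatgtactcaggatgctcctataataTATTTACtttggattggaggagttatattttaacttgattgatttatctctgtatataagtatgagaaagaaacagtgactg
SFTPA2, minus strand, chr10:79560408-79560657: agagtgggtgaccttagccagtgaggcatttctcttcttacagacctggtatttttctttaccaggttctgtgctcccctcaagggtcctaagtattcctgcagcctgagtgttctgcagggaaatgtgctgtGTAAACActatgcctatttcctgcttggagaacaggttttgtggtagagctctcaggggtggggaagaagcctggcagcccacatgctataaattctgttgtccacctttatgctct
IL33, plus strand, chr9:6215557-6215806: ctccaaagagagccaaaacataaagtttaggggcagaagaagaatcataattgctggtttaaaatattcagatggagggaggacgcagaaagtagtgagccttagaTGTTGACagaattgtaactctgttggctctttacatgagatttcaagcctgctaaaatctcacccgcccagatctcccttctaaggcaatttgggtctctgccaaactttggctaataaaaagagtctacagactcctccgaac

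The motifs searched, on both strands, were 5 heptamers for forkhead factors, 1 for AP-1 and the palindromic oestrogen response element. The forkhead heptamers were TGTTTAC, the closely related TGTTTGC, the variants that begin differently, TATTTAC as well as TATTTGC, and the less common form TGTTGAC. The AP-1 heptamer was TGANTCA, in which N stands for any base. A forkhead motif stood in 54 of the 109 windows that start in an unmarked region, or 49.5% (40.3 to 58.8). It stood in 25.4% of 3874 windows starting in a marked FOXA1 region, in 12.5% of 30806 windows starting in no FOXA1 region, and in 14.0% of all windows. These groups differ in base composition: the median GC content was 41.0% in the unmarked group and 61.0% in the marked group. Among windows under 50% GC, a stratum added after the first result was seen, the motif stood in 49.0% of the 96 in unmarked regions and 49.5% of the 570 in marked regions. In windows of that composition, the unmarked and marked regions therefore held the motif about equally often, against 24.8% of 9994 windows in no FOXA1 region.

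AP-1 is the dimeric factor of the JUN and FOS families. Its motif stood in 15.6% of the windows in unmarked regions (9.97 to 23.6), in 6.94% of those in marked regions and in 7.69% of all windows. The unmarked and marked groups differ in GC content, as given above, and the AP-1 motif was not counted within the windows of low GC content. The part of base composition in the AP-1 difference was therefore not tested. The oestrogen response element was found in 0 of the 109 windows, which allows a share of up to 3.40%, and in 0.0575% of all windows. A match describes letters in a window and not a bound site, and only 26 of the 109 windows lay wholly inside the unmarked region.

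FOXA1 enrichment was lower at unmarked than at marked regions, while covering nearly the same range. Fold enrichment is the pileup of sequenced fragments at the summit over the background of the whole genome, as deposited. Its median over unmarked regions was 6.26 in replicate 1 and 6.19 in replicate 2, at summits of 29 and 32 fragments. Marked regions had medians of 9.39 and 9.19, at 44 and 48 fragments, and those with both marks 12.1 and 11.6. The unmarked range, 2.50 to 77.6 in replicate 1 and 2.44 to 69.5 in replicate 2, nearly reached the marked maxima of 83.7 and 75.2. Those maxima were 400 fragments in both lists. The highest summit was also 400 in both H3K4me3 lists, in untransfected FGFR1 replicate 1 and in all 4 FGFR1 lists of transfected cells. It was 398 in untransfected FGFR1 replicate 2, and 376 and 384 in the H3K27ac lists. Whether the pileup was capped at 400 was not tested, so the top of the marked range may be cut short. The order of the class medians was thus the same in both lists, and the classes overlapped over almost their whole range.

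**Figure D1:**
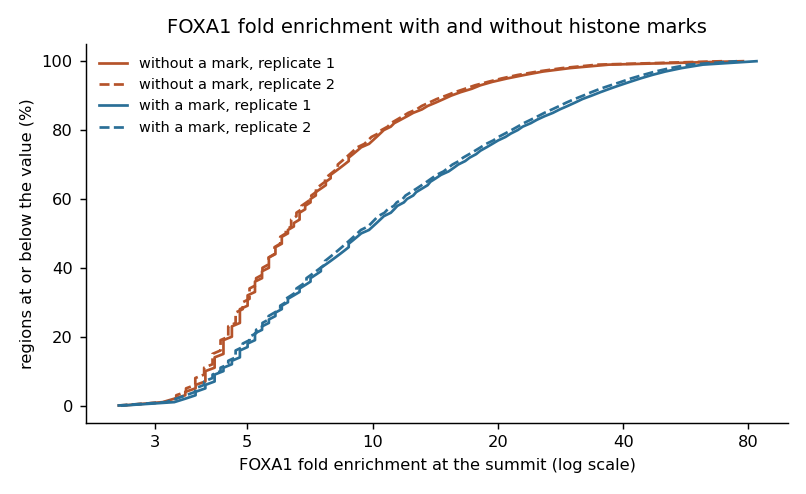
Cumulative share of FOXA1 regions (y axis, percent) at or below a given FOXA1 fold enrichment (x axis, log scale), for 45087 unmarked and 59113 marked regions in each replicate list. The curves of the 2 lists nearly coincide within a class, and the unmarked curves lie to the left, with medians of 6.26 and 6.19 against 9.39 and 9.19.

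Unmarked regions were also narrower, with a median width of 336 bp against 440 bp. The rule covers the whole merged stretch, so a wider region has more bases at which a mark row can overlap. The part of this in the width difference, and in the shares by enrichment below, was not tested. Summits of the 2 lists lay a median of 19 bp apart at unmarked regions and 17 bp at marked ones. They fell within 50 bp of each other at 84.3% and 85.4%. Across regions, the fold enrichments of the 2 lists had a rank correlation of 0.85 at unmarked and 0.96 at marked regions, given as a description since regions are not replicates. The FOXA1 summit was placed about as closely in both classes, and the smaller rank correlation stands beside the narrower spread of unmarked values (10th to 90th percentile 3.96 to 15.4 in replicate 1, against 4.38 to 33.6).

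When all FOXA1 regions were ordered by their mean within-list percentile and cut into 10 deciles, the share without a mark was 55.1% in the weakest decile and 57.9% in the third. It was 51.1% in the fifth decile, 40.8% in the seventh, 24.4% in the ninth and 12.1% in the strongest. Of the 1042 regions in the strongest 1%, 61 (5.85%) were unmarked. Strong FOXA1 enrichment without a mark was therefore uncommon, yet 1262 unmarked regions belonged to the strongest decile.

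**Figure D2:**
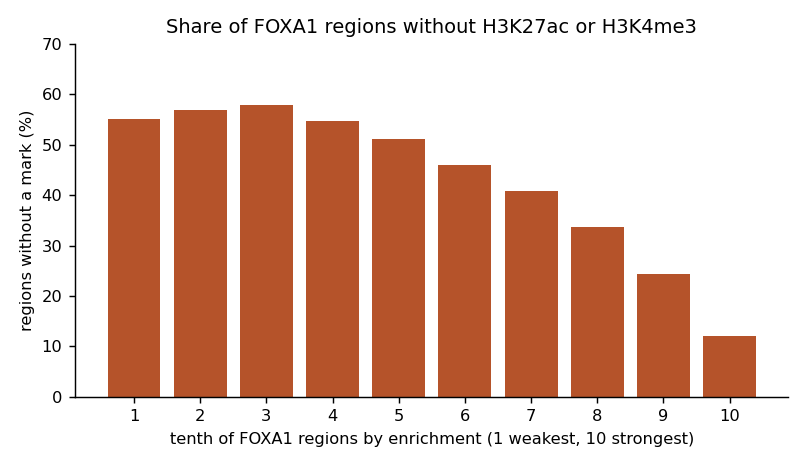
Percentage of FOXA1 regions without H3K27ac or H3K4me3 (bars, y axis) in each decile of regions by mean within-list FOXA1 percentile (x axis, weakest to strongest; 10420 regions in each of the 10). The share lies between 45.9% and 57.9% in the 6 weakest deciles and falls to 12.1% in the strongest.

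The strongest unmarked regions were spread over many chromosomes, mostly far from gene ends. The first, at chr4:88411319-88411921 inside the span of HERC6, an interferon-inducible ubiquitin ligase, had fold enrichments of 77.6 and 69.2. Its nearest H3K27ac row was 31.7 kb away. The second, at chr13:44812170-44812776, had 77.2 and 68.4 and lay 127 kb from the nearest end of a coding gene, NUFIP1.

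The third, at chr10:108721583-108722580, had 75.3 and 69.5 and lay 1140 kb from XPNPEP1, with the closest H3K27ac row 97.1 kb off. A region in the span of XKR9 (72.4 and 65.4) met the rule by a narrow gap, since an H3K27ac row began 0.0110 kb from its edge. A region 310 kb from PRL, the prolactin gene, had 69.9 and 64.9, and 1 near LUZP2 had 69.9 and 63.7. None of the 12 strongest unmarked regions overlapped a Pol II S5P or FGFR1 row in any of 8 lists. Only 1.32% of all unmarked regions and 7.72% of all FOXA1 regions did, so this sets the 12 apart in nothing.

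At ends of coding genes, the strongest unmarked region (chr4:73740394-73741042) covered the start of CXCL8, whose upstream sequence is printed above. Its fold enrichments were 57.8 and 56.2, at summits of 276 and 299 fragments, and an H3K27ac row lay 0.292 kb away. No Pol II S5P row overlapped it. The next were at C22orf23 (57.0 and 54.5), at POU2AF3 (47.6 and 45.2, with an H3K27ac row 0.0120 kb off) and at MAP3K7CL (41.3 and 38.1, with H3K27ac 101 kb off). The printed start of KLKB1 lies inside its gene's span, so its region was not ranked with these. It had 42.4 and 38.6, an H3K27ac row 0.179 kb off and a forkhead motif beginning at position -76 from the start. UGT2B11 had 16.3 and 14.2, SFTPA2 10.6 and 9.19, and IL33 8.55 and 9.19, each with the nearest H3K27ac row over 20 kb away. Members at the middle of the distribution were plainer: 5 regions nearest the median percentile, such as 1 of 292 bp close to UCK2, each had 7.51 and 5.06.

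How close a mark came is a matter of the rule, so the distances are given without a test. A mark row lay within 100 bp of 2409 unmarked regions (5.34%), within 1 kb of 6867 (15.2%) and within 50 kb of 77.6%. The median gap to the nearest H3K27ac row was 15481 bp and to the nearest H3K4me3 row 40775 bp. The 10th and the 90th percentile of the gap to H3K27ac were 358 and 121607 bp. On the other side of the rule, 7686 marked regions had a row in only 1 of the 4 mark lists. In the 4376 marked only by H3K27ac replicate 1 and the 2983 marked only by replicate 2, that row had median fold enrichments of 3.59 and 3.63, against 23 and 24.0 in regions marked in all 4 lists. The lowest summit listed for either mark held 9 fragments, so a weaker mark would not be seen. Unmarked means that no row was listed.

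Unmarked regions lay further from gene ends than marked ones. Only 726 (1.61%) came within 1 kb of either end of a coding gene, against 10.6% of marked regions and 6.74% of all FOXA1 regions. The median distance from summit to gene end was 69.2 kb for unmarked regions, 28.0 kb for marked ones and 15.4 kb for those with both marks. Distances over 100 kb were found for 41.5% and 23.1% of unmarked and marked regions. Being inside a gene separated the classes less: 45.2% of unmarked and 53.2% of marked summits lay in the span of a coding gene. Regions carrying H3K27ac alone stood between, with 2.64% within 1 kb of a gene end and a median distance of 39.3 kb. Both marks are found at promoters, so the rule itself removes regions at gene ends, and these distances are a description with no test.

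The chromosomes differed in the same direction. On chromosome 19, the most gene-dense, 16.5% of FOXA1 regions were unmarked, followed by 22% on chromosome 22, 28.2% on 17 and 28.9% on 16. The share was 53.7% on chromosomes 4 and 13 and 55.5% on X. Across the 23 chromosomes, the unmarked share and the number of coding genes per Mb had r = -0.82 and a Spearman rho of -0.85. This is a description over 23 points from the same libraries, and neither base composition nor the number of copies of each chromosome was measured.

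**Figure D3:**
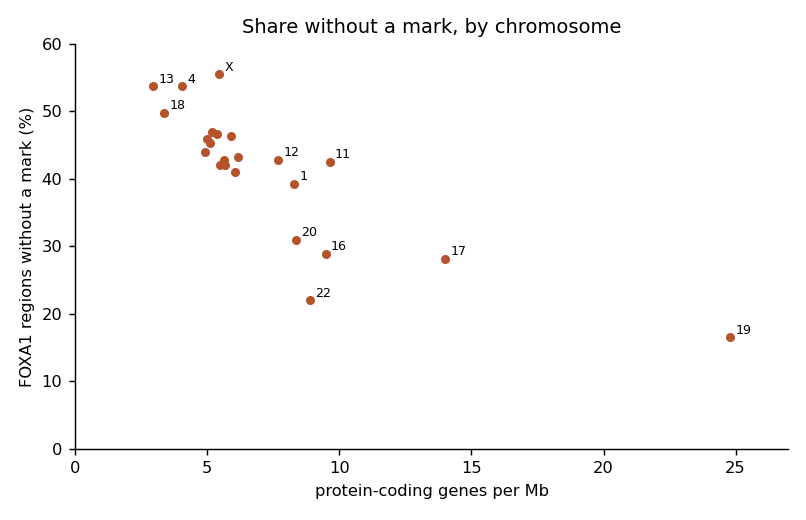
Percentage of FOXA1 regions without a mark (y axis) against protein-coding genes per Mb (x axis), 1 point for each of 23 chromosomes, with labels left out where points crowd. Chromosome 19 lies at the lower right with 16.5%, and chromosomes 4, 13 and X at the upper left with 53.7% to 55.5%.

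Unmarked regions had unmarked neighbours. The next FOXA1 region to the left was itself unmarked for 64.8% of members and for 26.8% of marked regions. The median gap to the nearest FOXA1 region was 8351 bp for members and 2449 bp for marked regions, so members were also the more scattered. Chaining members with gaps of up to 20 kb and no marked FOXA1 region between them gave 30169 groups, of which 20776 held a single member and 508 held 5 or more. A group of 12 in the gene-poor stretch chr1:189665791-189750279, 390 kb from BRINP3, had no H3K27ac row in it and fold enrichments of 4.59 to 23.8 in replicate 1 and 4.50 to 25.3 in replicate 2. A group of 10 covered part of NR3C1, the glucocorticoid receptor gene (3.55 to 8.76 and 3.19 to 9.93). On the scale of 1 Mb, the window from 187000001 to 188000000 on chromosome 1 held 66 unmarked among 71 FOXA1 regions (93.0%). The median over 2232 windows with at least 20 FOXA1 regions was 45.0%. The largest groups, 21 members at KCNU1 and 14 at ADAM18 on chromosome 8, lay in windows crowded with FGFR1 peaks.

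Genes with the most unmarked regions were very long. CNTNAP2, a neurexin-family adhesion gene of 2300 kb, held 89 in its span beside 62 marked, PTPRD 54 beside 19, CCSER1 51 unmarked, MACROD2 50 and TENM2 49. In CNTNAP2 the unmarked regions had a median fold enrichment of 5.63 and 5.44 and reached 33.2 and 31.9. In PTPRD, a receptor tyrosine phosphatase, the strongest reached 46.9 and 44.8. Per length, with flanks of 10 kb counted, these genes were less extreme than by number. CNTNAP2 had 3.83 unmarked regions per 100 kb and PTPRD 2.37, still above the 1.37 over all coding genes. FGG, of 8.52 kb, had 14.0, from 4 regions that all lay in its flanks and 0 in its span.

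Around genes of liver identity, most FOXA1 regions lacked a mark. Counting each region within the span or 10 kb of a gene once, the 30 liver genes had 28 unmarked and 11 marked regions (71.8% unmarked), against 37.1% of the 62623 around all coding genes. Of the 30, only 21 had any FOXA1 region. An unmarked region was found at 17 genes (56.7%), against 42.2% of all coding genes, and 14 of those 17 had no marked one. Others went the other way: TAT had 3 marked regions, AMBP 2, and APOA1 and G6PC1 1 each, all with 0 unmarked ones. FGG, the fibrinogen gamma chain, had 4 unmarked and 0 marked regions, the strongest of them at chr4:154617444-154618398 with 38.4 and 35.4. TF, which encodes transferrin, had 3 unmarked and 2 marked regions, the strongest unmarked one with 44.0 and 43.1 and the next H3K27ac row 48.1 kb away. ALB, serum albumin, had 4 unmarked regions up to 12.1 and 10.9, all in its flanks. The strongest of the 4 met the rule narrowly, with an H3K27ac row 0.0840 kb away. Its neighbour AFP, alpha-fetoprotein, had 3 up to 18.8 and 15.9, with H3K27ac 33.0 kb away or more. Only 5 of the 30 liver genes had H3K4me3 within 1 kb of an end, against 66.6% of all coding genes.

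Around luminal and oestrogen-response genes the reverse held. The 40 genes had 39 unmarked and 357 marked regions (9.85% unmarked), and 39 of the 40 had a marked region, as did 62.7% of all coding genes. FOXA1 and GATA3, the luminal transcription factor genes, had 0 unmarked regions within 10 kb, beside 9 and 6 marked ones. GREB1, an oestrogen-induced gene, had 1 unmarked (4.80 and 4.50) and 16 marked. ESR1, the oestrogen receptor gene, which is long, had the most unmarked regions in the list, 12 beside 29 marked. Its unmarked regions had median fold enrichments of 5.63 and 6.56, its marked ones 8.55 and 8.06, and the strongest unmarked one (chr6:151894050-151894774) reached 24.4 and 22.5. PGR, the progesterone receptor gene, had 5 unmarked regions of 4.17 to 5.84 and 3.56 to 8.44 beside 8 marked. By share the exceptions were others: NRIP1, a corepressor of the oestrogen receptor, had 3 unmarked and 0 marked regions, and AGR3 and ABAT had 4 of each. NRIP1 was named after its values were seen.

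Of the other 6 lists, 5 fell between these. Of the FOXA1 regions around 20 neuronal genes, 342 of 552 (62%) were unmarked. Around 20 lung and gut genes the share was 43.5%, around 16 blood cell genes 38.7%, around 22 basal and mesenchymal genes 24.4%, around 17 prostate and androgen-response genes 23.9%, and around 32 ribosomal protein genes 9.72%. CFTR, the chloride channel of gut and lung epithelium, had 10 unmarked and 8 marked regions. CDX2, an intestinal transcription factor, had 2 unmarked regions, the stronger with 35.3 and 31.5, beside 2 marked with medians of 30.5 and 29.9. KLK3, the gene of prostate-specific antigen, had 2 unmarked regions (up to 5.01 and 6.19) and 0 marked ones, whereas FKBP5 of the same list had 3 unmarked and 19 marked. CDH2, the neural and mesenchymal cadherin, had 5 unmarked and 0 marked regions, all 64.4 kb or more from H3K27ac. TP63 of the same list went the other way, with 3 unmarked and 27 marked. The share of the ribosomal list was close to that of the luminal list, on only 7 unmarked and 65 marked regions. H3K4me3 stood at an end of all 32. Over all coding genes, 33.7% of FOXA1 regions were unmarked near a gene with H3K4me3 at an end and 51.1% near only genes without it. Nothing particular to a list was tested here.

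**Figure D4:**
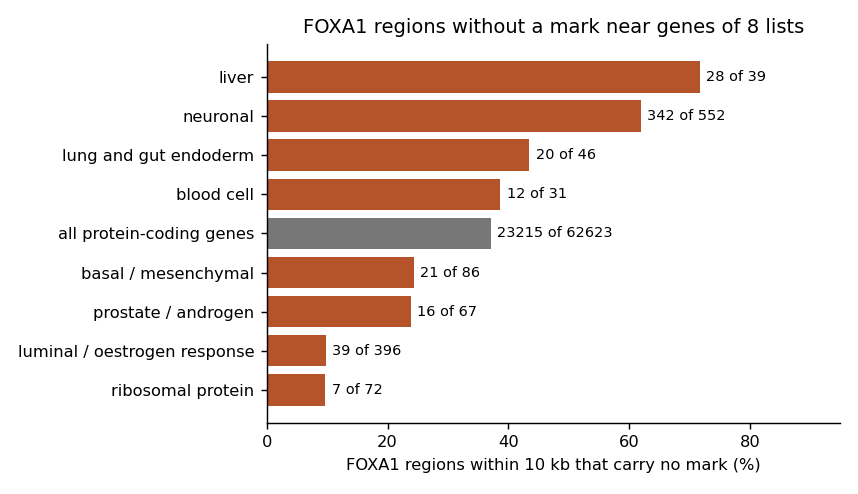
Percentage of FOXA1 regions without a mark (x axis) within the span or 10 kb of the genes in 8 lists and of all protein-coding genes (grey bar), with the number unmarked of the number of FOXA1 regions at each bar. The liver list stands at 71.8% and the neuronal list at 62%, the luminal and ribosomal lists at 9.85% and 9.72%.

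Pol II S5P, the form of the polymerase found at starting genes, was rarely listed at unmarked regions. It overlapped 217 (0.481%) in replicate 1 and 113 (0.251%) in replicate 2, and 70 (0.155%) in both. Over all FOXA1 regions the shares were 5.80%, 3.93% and 3.71%, and 6.41% of marked regions had it in both lists. Among marked regions it was 1.65% with H3K27ac only and 20.6% with both marks in replicate 1. The rarity at unmarked regions stands beside their distance from gene ends given above, whose part was not tested. No test was run on these shares, since both classes were read from the same 2 libraries.

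FGFR1 in untransfected cells, a receptor tyrosine kinase that the study profiled on chromatin, overlapped 44 (0.0976%) and 115 (0.255%) unmarked regions, against 2.01% and 4.67% of all FOXA1 regions. In both lists it was present at 23 (0.0510%), against 3.37% of marked and 1.93% of all FOXA1 regions. Per list, the marked share was 35.6 and 31.5 times the unmarked share, as it was 20.5 and 26.9 times for Pol II S5P. After siNT, FGFR1 overlapped 207 and 204 unmarked regions, 90 (0.200%) in both lists, and the marked share was 5.46 and 5.70 times the unmarked one. All FOXA1 regions stood at 1.62%, 1.66% and 0.925% for the same counts. After siFOXA1 the numbers were 139 and 212 with 63 (0.140%) in both, the ratio 5.08 and 3.17, and all FOXA1 regions stood at 1.02%, 1.05% and 0.500%. In all, 597 unmarked regions (1.32%) overlapped any of the 8 Pol II and FGFR1 lists, against 7.72% of all FOXA1 regions, which leaves nearly all of them with FOXA1 alone among the targets profiled.

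**Figure D5:**
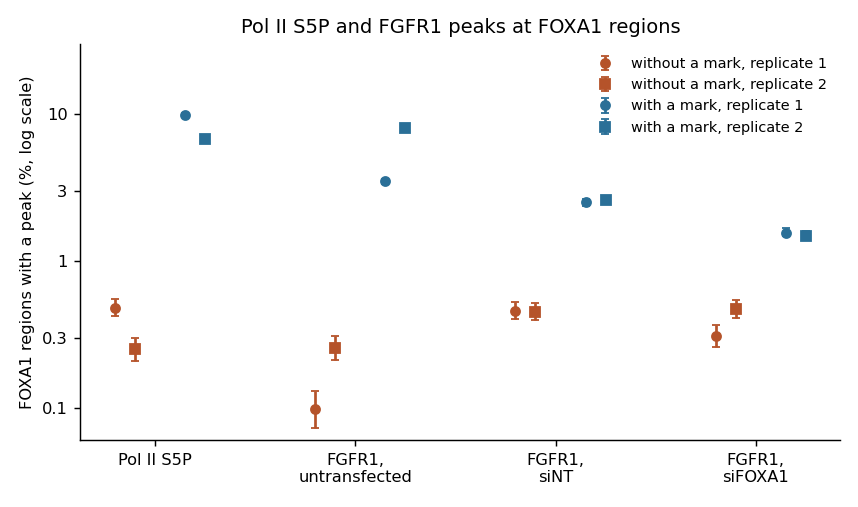
Percentage of FOXA1 regions overlapping a peak of each target (y axis, log scale), for unmarked and marked regions in each of 2 replicate lists; bars are 95% Wilson intervals, which cover counting error only and are hidden by the symbol where narrow. Unmarked regions lie between 0.0976% and 0.481% in every list and marked regions at 1.49% or more.

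Many of the unmarked regions with these targets lay in a small part of the genome. There were 34 windows of 1 Mb with over 10 times the mean number of FGFR1 peaks of transfected cells. These windows held 2.19% of unmarked and 4.38% of marked regions, so they were not particular to unmarked ones. Among unmarked regions they held 53 of the 70 with Pol II S5P in both lists (75.7%). They also held 15 of the 23 with FGFR1 in both untransfected lists and 56 of the 90 with it in both siNT lists. The windows were picked by FGFR1 peaks of the siNT and siFOXA1 lists, so the last count follows in part from that choice and supports nothing. The Pol II S5P and untransfected lists had no part in it. These windows include the FGFR1 gene and a part of 11q13. The spans from ZNF703 to ADAM9 at 8p11 and from TPCN2 to SHANK2 at 11q13 held only 9 of the 70, 1 of the 23 and 9 of the 90. Most of these regions thus lay outside those spans. The peak calls show a single background for the whole genome, so extra gene copies and binding cannot be told apart in the crowded windows. The example with the strongest FOXA1 signal, at chr11:69888236-69888935 and 69.3 kb from FGF3, had 35.9 and 32.1 for FOXA1. Its FGFR1 values were 3.64 and 5.33 untransfected, 7.53 and 6.27 after siNT and 5.47 and 5.0 after siFOXA1.

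Another 8 of the 70 lay in the span of a single gene, TSC1, which encodes hamartin, a brake on mTOR signalling. All 8 unmarked regions there, 276 to 674 bp wide between 132897122 and 132925803 on chromosome 9, had Pol II S5P in both lists. Each had FGFR1 in all 4 lists of transfected cells and in neither list of untransfected cells. The strongest, at chr9:132905526-132906199, had FOXA1 values of 51.5 and 17.6, Pol II S5P values of 17.0 and 27.1, siNT values of 28.6 and 30.7 and siFOXA1 values of 30.5 and 18.4. FOXA1 replicate 1 exceeded replicate 2 by 1.89 to 3.55 times at the 8, whereas the median ratio over all members was 1.02 and only 54 of 45087 members (0.120%) had replicate 1 at least 2 times higher. Of the 4 marked FOXA1 regions in the same span, 1 shared the pattern (ratio 2.82), and the 2 without Pol II S5P had ratios of 1.03 and 0.866.

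A like pattern stood in the span of FGFR1 itself. Of its 4 unmarked regions, 3 had Pol II S5P in both lists and FGFR1 in all 4 transfected lists and in untransfected replicate 2 but not replicate 1. Their FOXA1 values were 10.8 and 4.87, 15.9 and 5.81, and 19.2 and 6.0, each with replicate 1 far above replicate 2. The fourth had 3.34 and 5.25 and no other target. At these regions of both genes the FOXA1 lists thus disagreed far more than at most members, and the cause was not tested. The pattern was not confined to unmarked regions, since some of the 11 marked FOXA1 regions in the span of FGFR1 shared it. Among those, chr8:38429606-38430023 had FOXA1 values of 37.6 and 12.2, and chr8:38415796-38416117 had 20.7 and 4.87. Over all 11 the ratio of replicate 1 to replicate 2 ran from 0.622 to 4.24, with a median of 1.27.

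Outside the crowded windows and TSC1, 9 unmarked regions had Pol II S5P in both lists, or 0.0204% of the members there. Among them were 1 in HNRNPH1, which encodes a splicing regulator (Pol II S5P 4.71 and 4.55, FOXA1 6.47 and 6.56), 1 beside the tubulin gene TUBA1B (5.37 and 5.22, FOXA1 3.76 and 4.50) and 2 in KMT2C, a gene of an H3K4 methyltransferase. For untransfected FGFR1 in both lists, 8 remained. The highest FOXA1 values among them, 9.81 and 7.12, were at chr9:133022455-133022775 near GTF3C5, where FGFR1 was 7.96 and 11.8 untransfected, 19.1 and 18.2 after siNT and 8.36 and 9.07 after siFOXA1. A further such region 171 kb from LRP12 had 8.19 and 8.88, then 14.8 and 19.1, then 11.6 and 9.38. At both regions the siFOXA1 values lay below both siNT values. These were picked from many by their overlap, so the order is a description.

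The study compared FGFR1 binding after siNT and siFOXA1. At unmarked regions the number of FGFR1 peaks was 221 and 218 after siNT (219.5 ± 2.12, SD, n = 2) and 149 and 221 after siFOXA1 (185.0 ± 50.9, SD, n = 2). The whole lists were also shorter after siFOXA1, with 4332 and 5056 peaks against 6007 and 6594 after siNT. As a share of each list, the peaks at unmarked regions made up 3.68% and 3.31% of the siNT lists and 3.44% and 4.37% of the siFOXA1 lists, so the groups overlapped by share too. In peak number the siFOXA1 lists lay far apart and the groups overlapped: the ratio of means was 0.843, with a 2-sided exact permutation p of 1.0, where 2 against 2 lists allow no p below 0.333. Without siFOXA1 replicate 1 the ratio was 1.01, and without replicate 2 it was 0.679, so 1 library decides the direction. At marked regions the counts were 1569 and 1599 after siNT and 962 and 932 after siFOXA1. Whether the change differed between the classes was not tested.

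Between 67.9% and 76.0% of these peaks at members lay in the crowded windows, by list. Outside them the counts were 71 and 66 after siNT and 38 and 53 after siFOXA1, a ratio of 0.664. The windows left out were picked, after the data were seen, by the density of FGFR1 peaks in these same 4 lists, so the ratio is a description with no test.

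By region, 28 of the 45087 unmarked regions had FGFR1 in both siNT lists and no siFOXA1 list. Of the 28, 19 lay in crowded windows. This pattern stood at 272 of the 59113 marked regions, 81 of them in crowded windows, and at 300 (0.288%) of all FOXA1 regions. The opposite pattern was found at 11 unmarked regions, of which 10 lay in crowded windows. It stood at 26 marked regions, 22 of them in crowded windows, and at 37 (0.0355%) of all FOXA1 regions. FGFR1 was in all 4 transfected lists at 39 unmarked regions, of which 21 were in crowded windows and 8 in TSC1. It was in all 4 at 366 marked regions, 157 of them in crowded windows, and at 405 (0.389%) of all FOXA1 regions. An unmarked region of the first kind outside the crowded windows lay at chr19:35693765-35694074, 10.7 kb from ZBTB32. It had FOXA1 at 9.81 and 14.4 and FGFR1 at 7.22 and 6.58 after siNT. Another, in SCN11A, a sodium channel gene, had 7.30 and 6.19 for FOXA1 and 6.28 and 7.21 for FGFR1. The single unmarked region of the opposite kind outside those windows, at chr1:106383976-106385529, had FOXA1 at 16.5 and 15.7 and FGFR1 at 4.18 and 4.38 after siFOXA1.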

How the data were processed

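The 14 deposited ChIP-seq peak lists, 2 in each of 7 groups, were used: FOXA1, H3K27ac, H3K4me3, Pol II S5P and FGFR1, the last also in siNT and siFOXA1 cells. Per the submitters' processing notes, the build was hg38 and the tools named were Bowtie2, SAMtools, Picard and MACS2. Their versions and settings are not given in the sources used here. The authors deposited, for each peak, its fold enrichment as a linear ratio, the −log10 of its p-value and of its q-value, and how far the summit lies from the start. The 7 inputs were not analysed here. Peak names inside the deposited FOXA1 lists give FOXA2, and those of untransfected FGFR1 give other replicate numbers; the labels were followed.

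Fold enrichments in 12 lists lay on a grid of whole fragments (tolerance 0.01 fragments), which gave each summit's fragments and a single background for the genome, 2.11 to 4.33 fragments per position. That is the measure of depth, and no correction for local copy number or input is visible. Pol II S5P pileups were scaled and gave none.

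Peaks were merged and overlapped (1 base or more) in Python 3.11.15 with numpy 2.4.6, pandas 2.3.3 and scipy 1.17.1, after tests on simulated intervals. Coordinates are 1-based. Gene spans and promoter windows came from RefSeq, GRCh38.p14, with 19974 coding genes and 34961 windows, none of them on chromosome 8. Of 198 listed symbols, 197 matched. The members and the gene lists were chosen with earlier results of these data known. Regions named were taken from the 12 strongest by mean within-list percentile and from the strongest few at gene ends, with Pol II S5P, and with FGFR1 in each pattern across lists. Groups, genes and windows with the most members, and up to 4 genes a list, were named as well, beside FOXA1, FGFR1, ESR1, GATA3 and GREB1. NRIP1, the regions named outside the crowded windows, and the printed starts other than CXCL8, were chosen after their values were seen. The only test was an exact permutation of peak counts between siNT and siFOXA1. Other values are descriptions, with Wilson intervals for counting error. Replicate numbers were not used to pair the siRNA libraries in the main test. The correlation of same-numbered lists over 480 members was -0.0069. Those members were taken for a peak in any transfected list, so this value does not settle whether the libraries were paired. Alternatives changed q thresholds, overlap, distance to marks and gene-end windows, and left out each list in turn.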

Additional observations from a re-analysis of the deposited data

How the results depend on the processing

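Of 81 alternatives, 58 stayed close to the reported value, 22 moved further and 1 reversed. Close means within 1 SD between lists for shares and percentiles, within 1.5 times for the number of regions and on the same side of 1 for the siRNA ratio. The number of unmarked regions stayed between 31033 and 60940. Their share of FOXA1 regions, 43.3%, was 42.3% with −log10 q of FOXA1 rows of at least 5, 48.7% with that limit on marks, 36.7% and 29.8% where a mark within 1 kb or 5 kb counted, and 48.7% where a mark had to be in both lists. It was 44.4% over bases shared by both FOXA1 peaks and 45.4% over 300 bases around the summits, alternatives added after the data were seen. The share away from gene ends, 98.4%, was 98.4% with the stricter FOXA1 rows, 98.6% with marks within 1 kb counted and 92.1% with a gene-end window of 5 kb. The median percentile, 47.1, was 45.7 with the stricter FOXA1 rows, 47.8 with a reciprocal overlap of 50% and 48.4 with marks in both lists. Leaving out 1 list at a time gave shares of 43.4% to 47.8%, away from gene ends 98.4% to 98.4%, median percentiles of 38.9 to 39.5, Pol II S5P at 0.157% to 0.481% and untransfected FGFR1 at 0.0427% to 0.255% of members, where a single list left in counts alone. With −log10 q of Pol II S5P and FGFR1 rows of at least 5, Pol II S5P in both lists fell to 0.0399% of members, from 0.155%, and FGFR1 to 0.0266%, from 0.0510%, since fewer rows enter. The siFOXA1 to siNT ratio of 0.843 ran from 0.679 to 1.01 where 1 list was left out, and reversed only without siFOXA1 replicate 1; the cause was not tested. It was 0.710 with the stricter rows and 0.664 without the crowded windows. With the replicate number as a block the ratio was 0.827 (exact permutation p of 1.0, where no p below 0.500 is possible). Summits under 9 to 14 fragments were not listed, by target, so weaker binding or marks are outside these counts.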

Other observations

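FOXA1 rows found in a single list were more often without a mark than reproducible regions. Of the 18249 rows of replicate 1 outside any reproducible region, 66.0% (65.3 to 66.6) overlapped no mark, and of the 22547 of replicate 2, 67.5% (66.9 to 68.1). Their median fold enrichments were 4.17 and 3.94, below the 6.26 and 6.19 of the unmarked regions.

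Genes of blood cells and of connective tissue gave further single examples, which their lists as a whole did not share. Around the blood cell genes 38.7% of FOXA1 regions were unmarked, close to the 37.1% around all coding genes. Around the basal and mesenchymal genes the share was 24.4%, below that of all coding genes. ITGAM, an integrin of myeloid cells, had 2 unmarked and 3 marked regions, the stronger unmarked one with 23.2 and 27.2, although an H3K27ac row lay 0.0430 kb from it. PTPRC, which encodes the leukocyte antigen CD45, had 7 unmarked regions of 2.92 to 8.14 and 3.75 to 8.44 beside 4 marked. COL1A2, a fibrillar collagen gene, had 3 unmarked regions up to 17.9 and 17.6 and 0 marked ones, with H3K27ac 48.9 kb away or more. Only 4 of the 22 basal and mesenchymal genes had unmarked regions and no marked ones. ITGA6 of the same list had 3 unmarked and 4 marked.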
